A study of Mus musculus with 9 samples.

Results

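The S100 calcium-binding proteins were examined here as 9 genes, S100a1, S100a4, S100a6, S100a8, S100a9, S100a10, S100a11, S100a13 and S100a16, taken by symbol from the 13192 genes with counts in the merged table. All 9 were found, and all 9 passed the filter on low counts. RNA came from the apex of the heart of wild-type male mice (strain C57BL/6J) that were given 1e+11 viral particles of an adeno-associated virus (AAV) in the right gastrocnemius at 10 weeks of age, with tissue taken 12 weeks later. The treated mice received AAV-Osm, the vector for the cytokine oncostatin M (5 libraries), and the controls received AAV-Null (4 libraries), so both groups carry an AAV and an injected leg muscle. Nothing in the sources used here gives the promoter of the vector. The design text speaks of 5 submitted samples per group, of which 1 control was not analysed here. Since it is not stated outright that every library comes from its own mouse, p-values describe only the spread among these samples, which may be technical. The labels were not checked against the delivered gene, Osm, which was not analysed here.

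S100 proteins are small EF-hand proteins that mostly act as dimers, changing shape when calcium binds so that they can dock on partner proteins. Inside cells they tune calcium pumps and channels, the cytoskeleton and membrane repair, and some are released and act on receptors such as TLR4 and RAGE. In the heart S100a1 is the cardiomyocyte member and acts on the ryanodine receptor and the SERCA pump, while S100a8 and S100a9 together form calprotectin, the chief cytosolic protein pair of neutrophils. Several of the remaining members are found in fibroblasts, vessels, mesothelium and leukocytes.

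Total counts ran from 11841106 to 30625134 per library. The 15 cardiomyocyte markers were all measured and summed to between 118887 and 155847 CPM (counts per 1000000 counts of the library, with library sizes scaled by edgeR's TMM factors) in AAV-Osm libraries and to between 116262 and 152060 CPM in AAV-Null libraries, so the cardiomyocyte markers of the labelled tissue were abundant in both groups. AAV-Null 4 stood apart for many of the genes below. The 16 liver-type markers summed to 59.8 to 156 CPM in AAV-Osm libraries and to 53.0, 73.0, 329 and 258 CPM in AAV-Null libraries 1 to 4. In bulk tissue, fewer cells of a type and less RNA per cell cannot be told apart.

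Between the groups, 0 of the 9 members passed edgeR's quasi-likelihood test at an adjusted p under 0.05, where 0.121% of all genes tested did. S100a10 came nearest: it was 1.74-fold lower in AAV-Osm hearts, and it was the only member whose groups did not overlap. S100a16, S100a8 and S100a10 had an unadjusted p under 0.05, all 3 lower in AAV-Osm, where 3.09% of all genes did so in that direction. S100a1, by far the most abundant member, had a log2 fold change of 0.01. Of the 9 log2 fold changes 8 were below 0, with a median of -0.42, where 48.1% of all genes tested were below 0 and their median was 0.01. The members' median was -0.16 when AAV-Null 4 was left out.

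Short transcripts at large leaned the same way with all libraries, but hardly so when AAV-Null 4 was left out. The members' summed exon lengths run from 392 to 1061 bases, and among the 1007 other genes in that range 75.3% had a log2 fold change below 0, with a median of -0.13. That median was -0.02 when AAV-Null 4 was left out, 0.06 when AAV-Null 3 was left out as well, and 0.01 in limma-voom with quality weights. Of those genes 1 rose and 1 fell past the threshold. The median log2 level of these short genes, relative to each gene's mean over the 9 libraries, was highest in AAV-Null 4 (0.32) and lowest in AAV-Osm 5 (-0.22). The same measure for the 9 members was 0.79 in AAV-Null 4 and -0.34 in AAV-Osm 5. The members were lowest in AAV-Osm 2 (-0.40), where the short genes stood at 0.05. In AAV-Osm 3 the members were at -0.33 and the short genes at -0.03, so the 2 sets did not follow each other in every library. The part of transcript length in the members' differences was not tested.

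**Figure D1:**
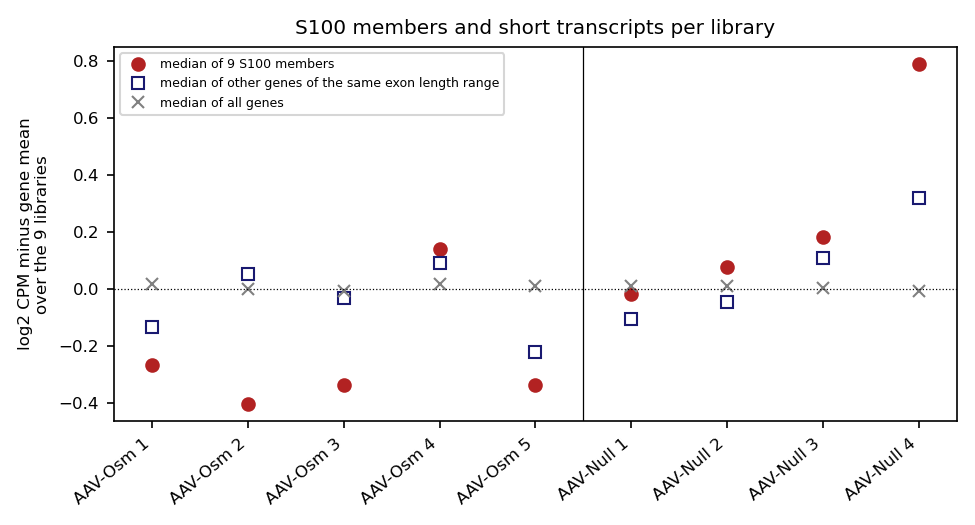
Median log2 CPM minus each gene's mean over the 9 libraries (y axis) in every library (x axis, AAV-Osm left of AAV-Null), for the 9 S100 members (filled circles), the 1007 other genes of their exon length range (open squares) and all genes (crosses). Members and short genes are both highest in AAV-Null 4, at 0.79 and 0.32, while the median of all genes stays near 0.

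**Figure D2:**
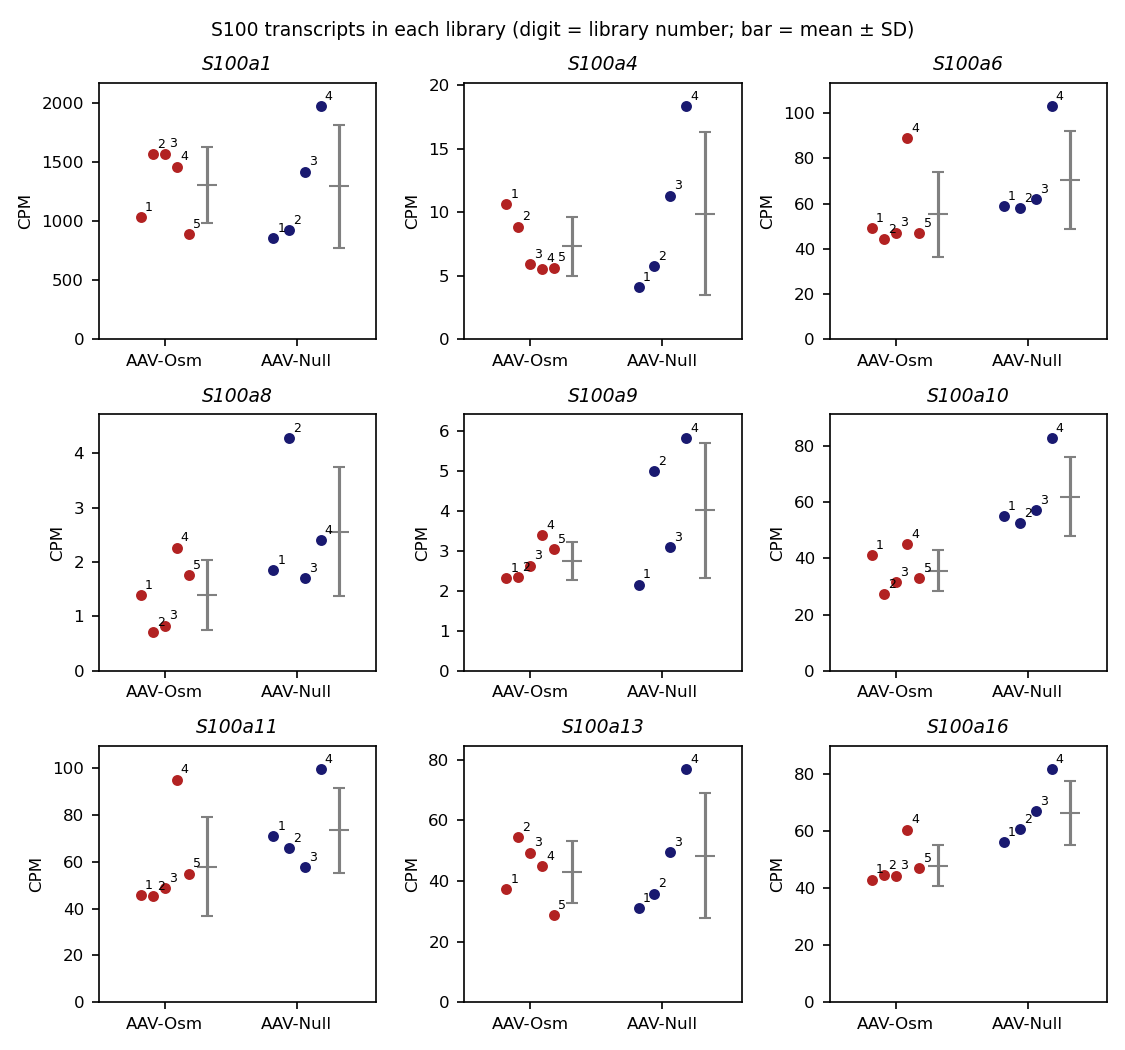
TMM-scaled CPM (y axis, from 0) of each S100 member in the 5 AAV-Osm and 4 AAV-Null libraries, with library numbers as digits and grey bars for mean ± SD. S100a10 is the only panel in which no point of one group reaches the other, and AAV-Null 4 is the highest AAV-Null point in every panel except S100a8.

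S100a1 was the family's main transcript in heart. Per kilobase of exon length it was at 2121 ± 519 CPM in AAV-Osm and 2103 ± 840 CPM in AAV-Null hearts (SD, n = 5 and 4), and it supplied 80.1% to 87.3% of the CPM of the 9 members in AAV-Osm libraries and 75.4% to 82.1% in AAV-Null libraries. In AAV-Osm libraries 1 to 5 it had 1037, 1565, 1571, 1461 and 889 CPM, and in AAV-Null libraries 1 to 4 it had 860, 924, 1419 and 1972 CPM. Low and high libraries occurred in both groups, which overlapped fully, and the log2 fold change was 0.01 with a 95% interval of -0.54 to 0.56 (edgeR adjusted p = 0.999, SE 0.26). Leaving out AAV-Null 3 with AAV-Null 4 gave 0.55 (edgeR adjusted p = 0.482), and limma-voom with quality weights gave 0.50. Its sign turned with total-count scaling (-0.01) and on leaving out any 1 of AAV-Osm 2, 3 and 4 and of AAV-Null 1 and 2, where the lowest value was -0.14.

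The label of S100a1 as a cardiomyocyte gene was checked against the other cardiomyocyte markers. Over the 9 libraries its log2 CPM followed their log2 summed CPM with Pearson's r = 0.943 (exact permutation p = 0.000863, adjusted p = 0.00259 over 3 such relations) and Spearman's rho = 0.883 (exact permutation p = 0.00308, adjusted p = 0.00923). Without the 2 libraries farthest from the median marker sum, r was 0.945. Libraries with high S100a1 were those with a high cardiomyocyte marker sum, in either group, but single markers differed. In AAV-Null 4, where S100a1 was highest, Myl2 (27609 CPM) and Tnni3 (13112 CPM) were also at their highest. Ttn (1054 CPM), Pln (2499 CPM) and Actc1 (5827 CPM) were at their lowest there. The genes whose ratio to S100a1 varied least over the 9 libraries were Ccdc107, Nrm and Rdm1, with SDs of the log2 ratio of 0.08, 0.08 and 0.09, where the median gene had 0.51.

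S100a13, whose product takes part in the release of fibroblast growth factor 1, lies beside S100a1 and varied with it. On chromosome 3 (mm10) S100a1 spans 90511034 to 90514330 on the minus strand and S100a13 spans 90514435 to 90524581 on the plus strand, so the genes point away from each other with 104 bases between their first exons. That stretch is shown because both genes start at its ends. It is read on the plus strand from RefSeq's promoter table (GRCm38.p6), with S100a1 beginning before the first base and S100a13 after the last:
S100a1 to S100a13, chr3:90514331-90514434: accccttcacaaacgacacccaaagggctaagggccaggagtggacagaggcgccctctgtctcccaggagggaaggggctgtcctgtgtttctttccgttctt
All of it is printed in lower case because no motif is marked. It holds 3 CpG dinucleotides and is 58.7% G or C.

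S100a13 had 37.3, 54.5, 49.4, 44.8 and 28.8 CPM in AAV-Osm libraries 1 to 5 and 30.98, 35.9, 49.6 and 76.9 CPM in AAV-Null libraries 1 to 4. The order of libraries was close to that of S100a1, with AAV-Null 4 highest for both and AAV-Osm 5 and AAV-Null 1 at the low end. The log2 fold change was -0.17 (95% interval -0.72 to 0.38, edgeR adjusted p = 0.975, SE 0.25). It was above 0 without AAV-Null 4 (0.14) and in limma-voom with quality weights (0.33), so its sign rests on that library and on the weighting.

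Over the 9 libraries S100a1 and S100a13 had Pearson's r = 0.961 (exact permutation p = 6.06e-05, adjusted p = 0.00218 over 36 pairs) and Spearman's rho = 0.900 (exact permutation p = 0.00203, adjusted p = 0.0369). Without the 2 libraries farthest from the median of S100a1 r was 0.935, and for deviations from the group means it was 0.981. S100a13 stayed between 2.64% and 3.09% of the S100a1 level per kilobase in AAV-Osm libraries and between 3.004% and 3.35% in AAV-Null libraries. The pair shares library, depth and TMM scaling. The strand setting of the counting is not given in the sources used here, but the exons do not overlap. Other genes tracked S100a13 more closely: chosen after their values were seen, Fam195b, the ribosomal protein gene Rps15 and Ndufb8, a subunit gene of respiratory complex I, had SDs of the log2 ratio of 0.08, 0.09 and 0.10, against 0.12 for S100a1.

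**Figure D3:**
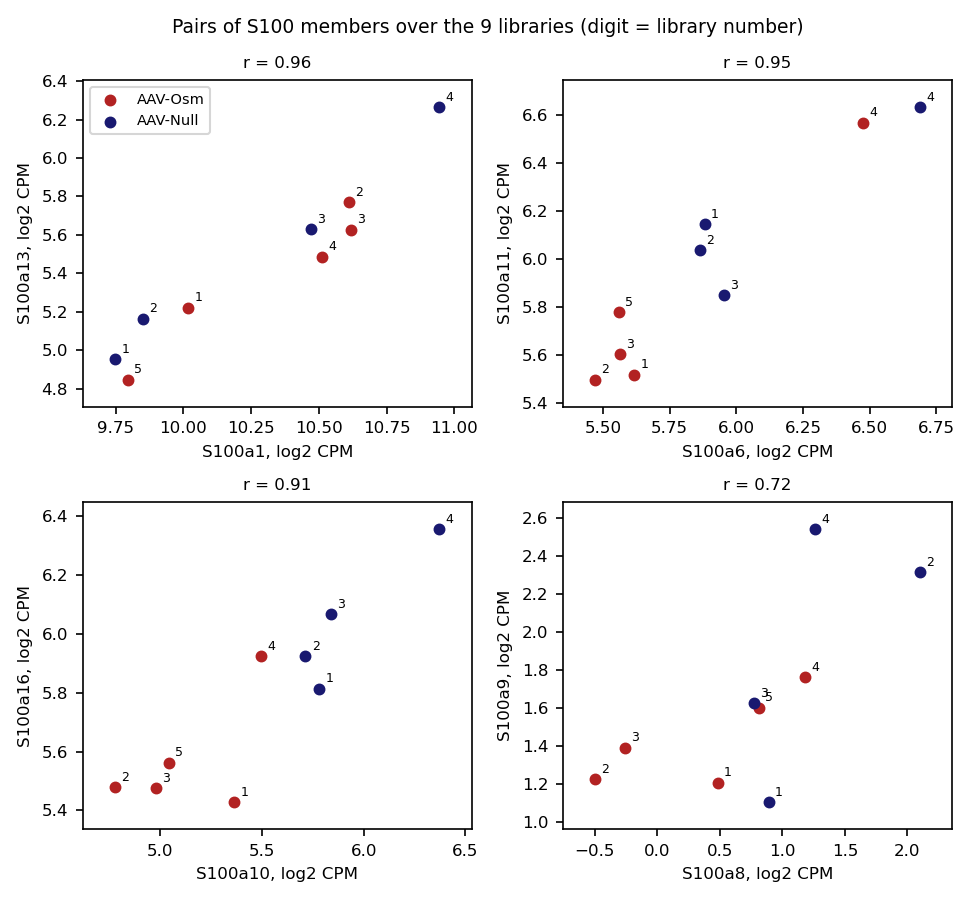
Log2 CPM of 4 pairs of S100 members in the 9 libraries, with library numbers as digits and Pearson's r (from log2 CPM with a prior count of 2) above each panel. S100a1 with S100a13, S100a6 with S100a11 and S100a10 with S100a16 lie close to a line (r = 0.96, 0.95 and 0.91), and S100a8 with S100a9 less so (r = 0.72).

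S100a10 encodes the partner of annexin A2, and unlike its relatives it does not depend on calcium to bind. The complex sits under the plasma membrane and on the cell surface, where it takes up plasminogen. S100a10 (3, 93555117 to 93564645, plus strand) had 41.1, 27.4, 31.5, 45.1 and 33.0 CPM in AAV-Osm libraries 1 to 5 and 55.0, 52.5, 57.2 and 82.8 CPM in AAV-Null libraries 1 to 4. Every AAV-Osm value lay below every AAV-Null value, and AAV-Null 4 stood above the other controls. Of all genes tested 1.23% had groups that did not overlap in this direction.

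The means of S100a10 were 35.6 ± 7.28 CPM in AAV-Osm and 61.9 ± 14.1 CPM in AAV-Null hearts (SD, n = 5 and 4), with a log2 fold change of -0.80 (SE 0.18, 95% interval -1.19 to -0.41). It did not pass in edgeR (adjusted p = 0.240). It passed in DESeq2 (adjusted p = 0.0150, where 0.205% of all genes tested were called lower) and in limma-voom with quality weights (adjusted p = 0.0236, where 0.705% were). Without AAV-Null 4 the log2 fold change was -0.63, and over 19 alternatives it ran from -0.90 to -0.60 with adjusted p from 0.0150 to 0.568. Chosen after their values were seen, the genes whose ratio to S100a10 varied least were Glipr2, Lyve1, a receptor gene of lymphatic endothelium and resident macrophages, and Gng11, with SDs of the log2 ratio of 0.15, 0.17 and 0.19 where the median gene had 0.58.

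Anxa2, the annexin that S100a10 binds, had 95.2, 86.5, 109, 106 and 79.7 CPM in AAV-Osm libraries 1 to 5 and 102, 97.5, 131 and 187 CPM in AAV-Null libraries 1 to 4. The groups overlapped, and the log2 fold change was -0.44 (edgeR adjusted p = 0.796, SE 0.19). For Anxa2 it was -0.21 when AAV-Null 4 was left out, -0.06 when AAV-Null 3 was left out as well, and -0.15 in limma-voom with quality weights, so its size rests on those controls. The S100a10 level per kilobase was 0.611 to 0.913 times that of Anxa2 in AAV-Osm libraries and 0.927 to 1.15 times in AAV-Null libraries.

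Of 6 genes of the plasminogen system around S100a10, 0 passed in edgeR. The log2 fold change was negative for 5, with a median of -0.51, where 48.1% of all genes tested were below 0. Of the 6, 3 had an unadjusted p under 0.05, where 788 of all 13192 genes had one. Plau, the urokinase gene, was at 3.63 ± 1.17 CPM in AAV-Osm and 5.44 ± 1.08 CPM in AAV-Null hearts (SD, n = 5 and 4; log2 fold change -0.58, edgeR adjusted p = 0.796, SE 0.24). Plau passed in limma-voom with quality weights (log2 fold change -0.94, adjusted p = 0.0325). Plaur, its receptor gene, had a log2 fold change of -0.62 (edgeR adjusted p = 0.883, SE 0.32). With 1 library left out it ran from -0.98 without AAV-Osm 5 to -0.42 without AAV-Osm 2. The Plaur values rest on 15 to 86 counts per library.

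S100a16 and S100a11 moved among libraries much as S100a10 and S100a6 did. S100a16 (3, 90541223 to 90543151, plus strand), a broadly expressed member, had 43.1, 44.6, 44.5, 60.7 and 47.2 CPM in AAV-Osm libraries 1 to 5 and 56.2, 60.7, 67.1 and 81.8 CPM in AAV-Null libraries 1 to 4. Apart from AAV-Osm 4, every AAV-Osm value lay below every AAV-Null value. The log2 fold change was -0.47 (95% interval -0.80 to -0.15, edgeR adjusted p = 0.579, SE 0.15), and without AAV-Osm 4 it was -0.57 with an edgeR adjusted p of 0.279. For S100a16 it was -0.36 without AAV-Null 4 (edgeR adjusted p = 0.907) and -0.29 when AAV-Null 3 was left out as well.

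S100a11 (3, 93520496 to 93526288, plus strand), which binds annexin A1 and serves membrane repair, had 45.8, 45.2, 48.6, 94.98 and 54.9 CPM in AAV-Osm libraries 1 to 5 and 70.9, 65.6, 57.7 and 99.3 CPM in AAV-Null libraries 1 to 4. S100a6 (3, 90612894 to 90614414, plus strand), also called calcyclin and found in fibroblasts and growing cells, had 49.1, 44.4, 47.2, 89.0 and 47.1 CPM in AAV-Osm libraries 1 to 5 and 59.0, 58.2, 61.9 and 103 CPM in AAV-Null libraries 1 to 4. In both genes AAV-Osm 4 lay near AAV-Null 4, and the other AAV-Osm libraries lay below all AAV-Null libraries. With all libraries, S100a11 had a log2 fold change of -0.34 (edgeR adjusted p = 0.929, SE 0.23) and S100a6 one of -0.35 (edgeR adjusted p = 0.929, SE 0.23). Without AAV-Osm 4 these were -0.59 (edgeR adjusted p = 0.367) and -0.59 (edgeR adjusted p = 0.393), and without AAV-Null 4 they were -0.16 and -0.11, so their size rests on these libraries.

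These 4 genes varied together. Of the 36 pairs of members, 6 had a Pearson correlation past an adjusted p of 0.05, and apart from S100a1 with S100a13 all were among S100a6, S100a10, S100a11 and S100a16. S100a6 with S100a11 had r = 0.949 (exact permutation p = 0.000546, adjusted p = 0.00982) and rho = 0.883 (exact permutation p = 0.00308, adjusted p = 0.0369). S100a10 with S100a16 had r = 0.909 (exact permutation p = 0.00123, adjusted p = 0.0111) and rho = 0.833 (exact permutation p = 0.00827, adjusted p = 0.0595). Without the 2 libraries farthest from the median these were r = 0.813 and r = 0.825. For deviations from the group means r was 0.936 for S100a6 with S100a11 and 0.755 for S100a10 with S100a16, whose r was 0.609 within AAV-Osm and 0.922 within AAV-Null libraries. The other 3 pairs had r between 0.800 and 0.877, and without AAV-Null 4 none of these 5 pairs passed the adjusted threshold. By rho, the pairs of S100a16 with S100a6, S100a10 and S100a11 did not pass (adjusted p = 0.0856, 0.0595 and 0.0711). S100a8 with S100a11 did (rho = 0.867, exact permutation p = 0.00451, adjusted p = 0.0406). Its Pearson correlation did not (r = 0.662, exact permutation p = 0.0499, adjusted p = 0.132).

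The markers of mesothelium, the cell layer on the heart surface, moved with this group in some libraries. Of 10 such markers 9 were measured, all 9 had a negative log2 fold change, and 0 passed in edgeR. An unadjusted p under 0.05 was found for 5 of the 9, where 788 of all 13192 genes had one. Their sum was 13.9 to 60.2 CPM in AAV-Osm libraries and 54.7 to 165 CPM in AAV-Null libraries, highest in AAV-Null 4. AAV-Osm 4, where S100a6, S100a11 and S100a16 were high, had a mesothelial sum of only 32.6 CPM. Fibroblast markers summed to 2053 to 3106 CPM in AAV-Osm and 2550 to 3907 CPM in AAV-Null libraries, with AAV-Osm 4 at 3054 and AAV-Null 4 at 3907. Macrophage markers summed to 560 to 811 CPM in AAV-Osm and 563 to 1185 CPM in AAV-Null libraries. A negative log2 fold change was also found for 13 of 14 fibroblast and 12 of 16 macrophage markers. The same held for 6 of 6 Schwann cell and 16 of 16 liver-type markers. Only 3 of 15 cardiomyocyte, 1 of 5 erythroid and 1 of 6 platelet markers were negative, where 48.1% of all genes tested were. The part of these cell types in the S100 values was not tested.

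**Figure D4:**
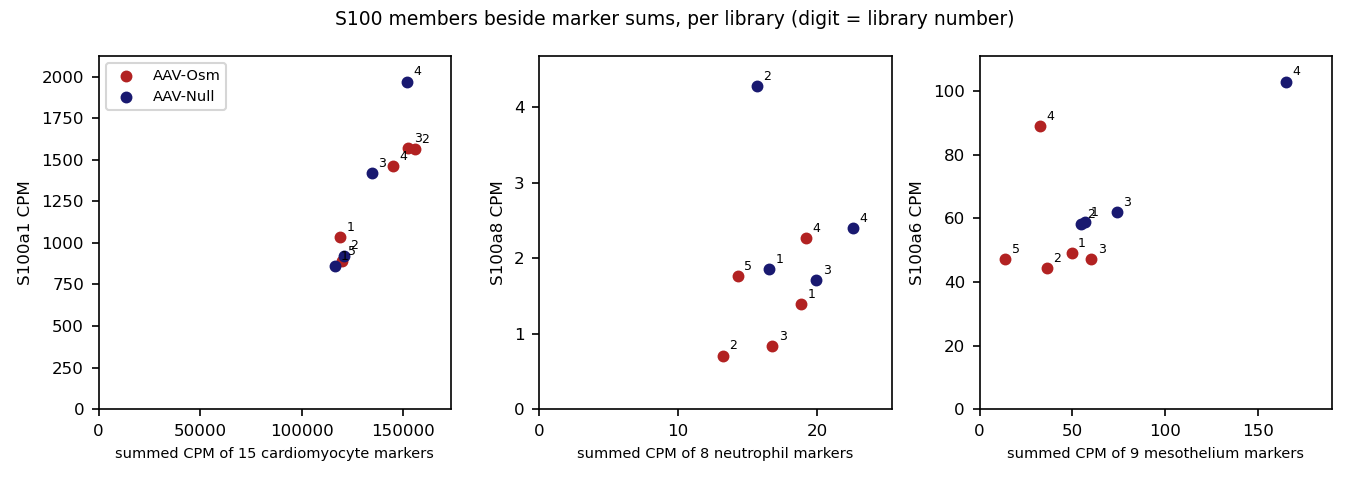
CPM of S100a1, S100a8 and S100a6 (y axes) against the summed CPM of 15 cardiomyocyte, 8 neutrophil and 9 mesothelium markers (x axes) in each library, with library numbers as digits. S100a1 climbs with the cardiomyocyte sum (r = 0.943 on the log2 scale), S100a8 is spread widely at like neutrophil sums, and AAV-Osm 4 has high S100a6 at a mesothelium sum of 32.6 CPM.

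S100a8 and S100a9 were the least abundant members. S100a8 (3, 90669071 to 90670034, plus strand) had 1.40, 0.708, 0.833, 2.26 and 1.76 CPM in AAV-Osm libraries 1 to 5 and 1.85, 4.28, 1.71 and 2.40 CPM in AAV-Null libraries 1 to 4. These values rest on 13 to 37 counts per AAV-Osm library and 37 to 104 per AAV-Null library. AAV-Null 2 was the highest, AAV-Osm 2 and 3 were the lowest, and the groups overlapped. The log2 fold change was -0.90 (95% interval -1.68 to -0.11, edgeR adjusted p = 0.769, SE 0.36), and without AAV-Null 2 it was -0.53.

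S100a9 (3, 90692630 to 90695721, minus strand) had 2.31, 2.34, 2.63, 3.40 and 3.04 CPM in AAV-Osm libraries 1 to 5 and 2.16, 4.98, 3.09 and 5.82 CPM in AAV-Null libraries 1 to 4. AAV-Null 2 and AAV-Null 4 were above every AAV-Osm library, and AAV-Null 1 was below all of them. The log2 fold change was -0.56 (95% interval -1.15 to 0.04, edgeR adjusted p = 0.866, SE 0.27), and without AAV-Null 4 it was -0.33. S100a8 with S100a9 had r = 0.716 (exact permutation p = 0.0298, adjusted p = 0.107) and rho = 0.667 (exact permutation p = 0.0589, adjusted p = 0.151). The level of S100a9 per kilobase was 1.12 to 2.47 times that of S100a8 in AAV-Osm libraries and 0.869 to 1.82 times in AAV-Null libraries.

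The label of this pair as neutrophil genes could be checked only in part. Of 32 other neutrophil markers 8 were measured (Csf3r, Cxcr2, Lcn2, Mmp9, Padi4, Hdc, Clec4d and Hp), and 24, Ly6g, Mpo and Elane among them, were not analysed here. The 8 summed to 13.2 to 19.2 CPM in AAV-Osm and 15.6 to 22.6 CPM in AAV-Null libraries. Of the 8, 6 had a negative log2 fold change and 0 passed in edgeR. An unadjusted p under 0.05 was found for 2, where 788 of all 13192 genes had one. The 2 were Mmp9, a gelatinase gene, and Cxcr2, a chemokine receptor gene. Mmp9 had a log2 fold change of -1.14 (edgeR adjusted p = 0.579, SE 0.37). It had 6.77, 1.85, 2.10 and 4.06 CPM in AAV-Null libraries 1 to 4 and 1.20 to 2.23 CPM in AAV-Osm libraries. Cxcr2 had a log2 fold change of -1.11 (edgeR adjusted p = 0.725, SE 0.43). Its means were only 0.301 CPM in AAV-Osm and 0.640 CPM in AAV-Null libraries. The other markers ran from -0.20 (Hdc) to 0.18 (Hp), and the median of the 8 was -0.07. The part of neutrophils in the values of S100a8 and S100a9 was not tested. Over the 9 libraries S100a8 followed that sum with r = 0.339 (exact permutation p = 0.375, adjusted p = 0.375) and rho = 0.300 (exact permutation p = 0.437), and S100a9 with r = 0.436 (exact permutation p = 0.243, adjusted p = 0.364) and rho = 0.433 (exact permutation p = 0.250). Without the 2 libraries farthest from the median sum, r was -0.19 and -0.20, so no relation was detectable. Hp and Lcn2 are also made by other cells, and these are low counts.

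The genes whose ratio to S100a8 varied least were Gm684, Ripply3 and Tspan18 (SDs of the log2 ratio of 0.30, 0.33 and 0.35, against 0.78 for the median gene). For S100a9 they were Xrcc3, Kdelr3 and Gpsm3 (0.27, 0.27 and 0.28, against 0.56).

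A motif search was limited to 9 RefSeq promoter windows of 8 members (all but S100a10), each from 250 bases before to 50 bases after the start (GRCm38.p6). Both strands were searched, and the motifs do not contain each other. TTCNNNGAA, a STAT-type motif, was chosen because oncostatin M signals through STAT factors. It was in 0 of the 9 windows, where 8.3% of all 32851 windows hold it. TTGCNNAA, a C/EBP-type motif of myeloid genes, was in 1 window, that of S100a9, where 10.8% of all windows hold it. That match begins 236 bases before the start and is shown in capitals on the gene's own strand:
S100a9 upstream, chr3:90695930-90695969, minus strand: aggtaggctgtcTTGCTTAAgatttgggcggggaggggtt
A match is a description of the letters and says nothing of binding here.

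S100a4 (3, 90603770 to 90606045, plus strand), a cell motility gene of fibroblasts and leukocytes, had 10.6, 8.88, 5.90, 5.57 and 5.65 CPM in AAV-Osm libraries 1 to 5 and 4.11, 5.76, 11.3 and 18.3 CPM in AAV-Null libraries 1 to 4. AAV-Null 4 was the highest library and AAV-Null 1 the lowest, so the controls spanned the whole range. The log2 fold change was -0.42 (edgeR adjusted p = 0.947, SE 0.37), and it was above 0 without AAV-Null 4 (0.05) and without AAV-Null 3 and AAV-Null 4 (0.58). In GENCODE M21 the gene Gm42674 overlaps S100a4 on the same strand, so its counts are uncertain if the authors' annotation held both.

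**Figure D5:**
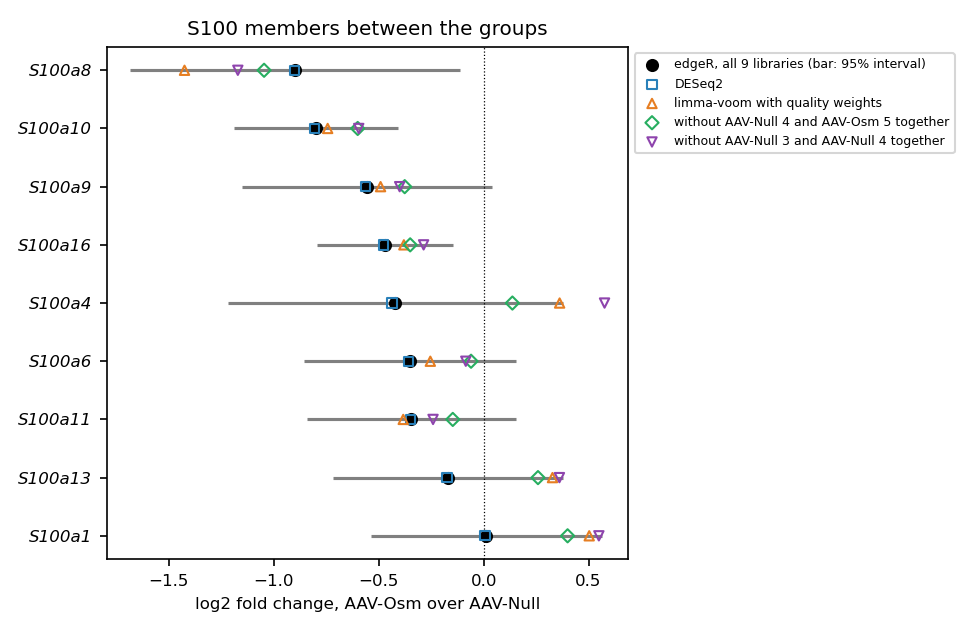
Log2 fold change, AAV-Osm over AAV-Null (x axis), of each member in edgeR with all 9 libraries (filled circles, bars for 95% intervals), in DESeq2, in limma-voom with quality weights and without 2 pairs of libraries (open symbols). S100a8, S100a10, S100a9, S100a16, S100a6 and S100a11 stay below 0 in every fit shown, S100a4 and S100a13 have fits on both sides, and S100a1 has none below it.

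Per kilobase, the order of levels in AAV-Null hearts was S100a1, S100a11, S100a6, S100a10, S100a13, S100a16, S100a4, S100a9 and S100a8. After S100a1, S100a11 was at 115 ± 41.8 CPM in AAV-Osm and 146 ± 36.0 CPM in AAV-Null hearts (SD, n = 5 and 4), and S100a8 closed the order at 3.55 ± 1.65 and 6.53 ± 3.02 CPM. S100a11 was above S100a6 in 9 of 9 libraries, but S100a6 was above S100a10 and S100a10 above S100a13 in 7 of 9 and S100a13 above S100a16 in 6 of 9, so these neighbours did not differ beyond their spread. S100a9 was above S100a8 in 7 of 9. The order of means in AAV-Osm hearts had S100a13 (60.1 ± 14.2 CPM per kilobase) before S100a10 (54.8 ± 11.2 CPM per kilobase).

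All members sit on chromosome 3 in 2 blocks. The first holds 7 genes within 184688 bases and the second, with S100a11 and S100a10, holds 2 within 44150 bases, and 2824774 bases lie between the blocks. Of the pairs that varied together, S100a6 and S100a11 lie in different blocks, as do S100a10 and S100a16. Of 16 other measured genes within 500 kb of a member, 0 passed in edgeR. An unadjusted p under 0.05 was found for 1, where 788 of all 13192 genes had one. The median log2 fold change of the 16 was 0.06. Slc27a3, a fatty acid transport protein gene, had one of 0.61 (edgeR adjusted p = 0.762, SE 0.24). Members' annotated transcripts (GENCODE M21) shared at most 19 identical bases in a row, which is short against 75-base reads.

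Outside the 9 members, S100b, the Schwann cell and glial member on chromosome 10, was the only other S100 gene of 10 listed that was measured. It was at 2.80 ± 1.34 CPM in AAV-Osm and 4.04 ± 1.27 CPM in AAV-Null hearts (SD, n = 5 and 4; log2 fold change -0.56, edgeR adjusted p = 0.909, SE 0.33). For S100b it was -0.36 without AAV-Null 4, -0.37 without AAV-Osm 5 and -0.15 without AAV-Null 3 and 4. Of 9 receptor and signalling genes 8 were measured, 0 passed in edgeR (0 had an unadjusted p under 0.05) and the median log2 fold change was 0.04. Ager, the gene of RAGE, was not analysed here. Ly96, the TLR4 co-receptor gene, had a log2 fold change of -0.27 (edgeR adjusted p = 0.955, SE 0.28), which was -0.13 without AAV-Null 4 and -0.11 without AAV-Osm 5.

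Of 18 intracellular partners 16 were measured and 0 passed in edgeR. An unadjusted p under 0.05 was found for 2, where 788 of all 13192 genes had one. The median log2 fold change of the 16 was -0.04. Tagln2, an actin-binding gene, had one of -0.47 (edgeR adjusted p = 0.676, SE 0.17), and Ahnak, the large scaffold that binds annexin A2 with S100a10, one of 0.27 (edgeR adjusted p = 0.914, SE 0.16) that was 0.17 without AAV-Osm 4. Of the 7 cardiac targets of S100a1 0 passed in edgeR (0 had an unadjusted p under 0.05), with a median of 0.10. Nos3, the endothelial nitric oxide synthase gene, had a log2 fold change of -0.21 (edgeR adjusted p = 0.923, SE 0.13), and Ttn, the giant sarcomere protein gene, one of 0.45 (edgeR adjusted p = 0.934, SE 0.33). For Ttn it ran from 0.21 without AAV-Null 4 to 0.72 without AAV-Null 1. Of 21 other EF-hand calcium sensors 19 were measured, 0 passed in edgeR and the median log2 fold change was -0.16. Of these 19, 3 had an unadjusted p under 0.05, against 788 of all 13192 genes. Calm2, a calmodulin gene, had a log2 fold change of -0.32 (edgeR adjusted p = 0.754, SE 0.13), with no overlap between groups. Of all genes tested 1.23% had groups that did not overlap in this direction, Nos3 among them. The mitochondrial EF-hand gene Efhd1 had a log2 fold change of -0.49 (edgeR adjusted p = 0.749, SE 0.19). Across the 6 lists, Plau in limma-voom was the only call made by DESeq2 or limma-voom.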

How the data were processed

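The RNA was enriched for mRNA, prepared with the KAPA mRNA HyperPrep chemistry and sequenced in pairs of 75 bases, per the labels' protocols. Alignment and counting tools named in the submitters' processing notes are STAR 2.5.2b, Subread 1.5.1 and featureCounts, with mm10 as the build. Not given in the sources used here are the gene annotation, how strand was set and how reads matching several places were handled. What the authors deposited is 1 table of raw counts by gene, not normalized, and per the file headers it also holds a summed exon length in bases; 4141 blank lines were left out. Every gene exceeded 0.5 CPM in at least 4 libraries, so lower genes were not analysed here, and filterByExpr removed 0 genes.

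AAV-Osm was compared with AAV-Null over all 13192 genes in edgeR 4.0.16 (R 4.3.3, TMM, robust two-sided quasi-likelihood test, Benjamini-Hochberg adjustment over all genes, group as the only term). SE is the log2 fold change divided by the square root of F. CPM are TMM-scaled, and correlations used log2 CPM with a prior count of 2 and exact two-sided permutation of all pairings. The test was tested on simulated counts. No 2 libraries were identical, and the smallest chi-square per degree of freedom for a pair was 6.52. Alternatives were DESeq2 1.42.0, limma 3.58.1 (voom with quality weights), other factors and filters, dispersions that are not robust, and left-out libraries.

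The members and gene lists were chosen with earlier results of these data known. Named genes were the members, up to 4 genes per list with the smallest p, and the 3 genes with the least varying ratio to S100a1, S100a8 and S100a9 among those with a mean of at least 1 CPM. Some of the genes so named are not reported here. The short-gene comparison, the marker relations and the nearest genes of S100a10 and S100a13 were added after values were seen. Library numbers follow accession order and are names only.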

Additional observations from a re-analysis of the deposited data

Results flagged for a closer look

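A library was picked out where its gap to the nearest other library of its group took up more of the group's range than Dixon's 95% critical value (0.829 for 4 libraries, 0.71 for 5). Of 18 groups tested (9 members in each treatment) 5 were picked out, and chance flags about 1 in 20 independent groups. These groups are not independent, because the members share libraries and some varied together, so the 5 cannot be weighed against that share. AAV-Osm 4 was high for 3 members. Its 89.0 CPM of S100a6 stood above 44.4 to 49.1 CPM in the other AAV-Osm libraries, a gap of 0.894 of the range. Its 94.98 CPM of S100a11 stood above 45.2 to 54.9 CPM (0.805 of the range), and its 60.7 CPM of S100a16 above 43.1 to 47.2 CPM (0.764 of the range). AAV-Osm 4 was also the library with the lowest total count, 11841106. AAV-Null 4 was high for 2 members, with 103 CPM of S100a6 above 58.2 to 61.9 CPM in the other AAV-Null libraries (0.917 of the range) and 82.8 CPM of S100a10 above 52.5 to 57.2 CPM (0.843 of the range).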

How the results depend on the processing

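Over the alternatives tried, 996 of 1078 recomputed values kept their direction and their side of the threshold, or moved little. The count of members called lower, 0 in edgeR, became 1 with DESeq2 and 1 with weighted limma-voom (S100a10 both times), and 0 without any 1 library. Over all genes, edgeR called 11 higher and 5 lower, DESeq2 24 and 27, and limma-voom 83 and 93, while 3 were lower without AAV-Null 4 and AAV-Osm 5. Leaving out 1 library gave 4 to 7 higher and 0 to 6 lower, and a median over the members of -0.59 to -0.16. The log2 fold change of S100a1 changed sign with total counts (-0.01) and ran from -0.14 to 0.29 with 1 library left out. S100a4 changed sign in limma-voom (0.36), without AAV-Null 3 and AAV-Null 4 (0.58) and without AAV-Null 4 and AAV-Osm 5 (0.14), with a range of -0.68 to 0.052 when 1 library was left out. S100a13 did so in the same fits (0.33, 0.36 and 0.26; range -0.33 to 0.14). Ly96 stood at 0.027 in the fit that lacks AAV-Osm 5 and AAV-Null 4, and Ttn at -0.037 in the fit that lacks AAV-Null 3 and 4. The cause was not tested. The correlation of S100a1 with S100a13 lost its call without AAV-Null 4 and AAV-Osm 5 (r = 0.965, adjusted p = 0.0571). No paired analysis was possible because the labels carry no replicate numbers. Depth limits S100a8 and S100a9, at 13 to 121 counts per library.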
